A study of Mus musculus with 12 samples.

Results

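The comparison set the hippocampus (HC) against the anterior cingulate cortex (ACC) in mice that had learned a task, using every gene on the array. It rested on 6 of the 12 arrays of the series, chosen by their labels, the 3 pools of HC trained mice and the 3 pools of ACC trained mice. The mice were C57B16/J animals (as the labels spell the strain) of both sexes, and the labels list 16 males and 18 females over all groups without assigning them to pools. All were fitted with a head bar in surgery at 8 to 12 weeks of age, recovered for 7 days, were water-deprived and stood head-fixed on a ball floating on air. Trained mice learned to answer a visual cue for a water reward and took 27 ± 2.6 days on average (error as the labels give it) to reach criterion. Control mice went through the same procedure but received water at random times, and their HC and ACC pools, 3 each, stand beside the trained pools where the data call for it. An HC pool held RNA of 7 mice and an ACC pool RNA of 5, so each array averages several animals. Whether the HC and ACC pools came from the same animals is not given in the sources used here. The labels list fewer mice than the trained and control HC pools would hold without sharing animals, which the labels do not explain. The paper counts more mice than the labels do and describes the pools of a condition as biological replicates. Pools 1 and 2 of each group belonged to batch 1 and pool 3 to batch 2, and p-values below measure the spread between such pools.

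The hippocampus is a folded sheet of older cortex in which granule neurons of the dentate gyrus project to the pyramidal neurons of CA3, which in turn project to CA1. It is known for the rapid encoding of places and events. The ACC is frontal neocortex with layered pyramidal neurons, without the granular input layer of sensory cortex, and is known for attention, choice and the later storage of memories. A dissected hippocampus lies against the lateral ventricle, whose choroid plexus secretes cerebrospinal fluid and whose wall is lined by ciliated ependymal cells, and against the fibre tracts of the fimbria and corpus callosum.

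Values are log2 expression levels as deposited, so that a difference of 1 is a 2-fold difference in signal, and differences are HC trained minus ACC trained throughout. Levels of different genes are not compared, since probes differ in brightness. The 1365 odorant and vomeronasal receptor genes had a median level of 1.42 and a 95th percentile of 2.76, which served as the background of the array. Across genes, the HC trained arrays correlated with each other at r = 0.9945 to 0.9952 and the ACC trained arrays at 0.9939 to 0.9946. An HC trained and an ACC trained array correlated at 0.9876 to 0.9896. The first principal component of the 6 arrays, with 32.5% of the variance, placed the HC trained pools at 88.4, 79.9 and 88.4, against −88.0, −69.4 and −99.3 for the ACC trained pools. The mean of the sex-linked genes was 4.90, 5.39 and 5.44 in HC trained pools and 5.50, 4.96 and 5.25 in ACC trained pools, with overlap, and 0 of 4 were called (limma; 0 at an unadjusted p under 0.05). The Y-linked gene Uty had 4.07, 5.37 and 5.61 in HC trained pools, against 5.69, 4.29 and 4.66 in ACC trained pools. The list joins Xist with the Y-linked genes Uty, Kdm5d and Eif2s3y. Xist moved opposite to Uty and Kdm5d, so the mean can hide a sex difference. Differences in batch 1 were −0.28 for Uty, −0.42 for Kdm5d and 0.37 for Xist, and in batch 2 they were 0.95, 0.70 and −0.85. Eif2s3y differed by −0.00 and −0.02.

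At the level of single genes, 1308 had a higher and 1239 a lower level in HC trained than in ACC trained pools, at an adjusted p under 0.05 (limma, Benjamini-Hochberg over 27381 genes). These 2547 genes were 9.30% of those tested, 4.78% in the higher and 4.53% in the lower direction. The median size of a called difference was 0.51. At least 1 log2 unit separated the regions for 178 higher genes (0.650%) and 121 lower genes (0.442%), and at least 2 units for 23 higher and 3 lower genes. Differences of 2 units or more lay mostly on the side of HC. The 3 pools of each region did not overlap for 6987 genes (25.5% of those tested), and for 2539 of the 2547 called genes. Across all genes, r was 0.548 between the region differences measured in batch 1 and those measured in batch 2. Of the called genes, which were called from these same pools, 2545 differed in the same direction in both batches. Among the receptor genes 18 were called (1.32%).

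**Figure D1:**
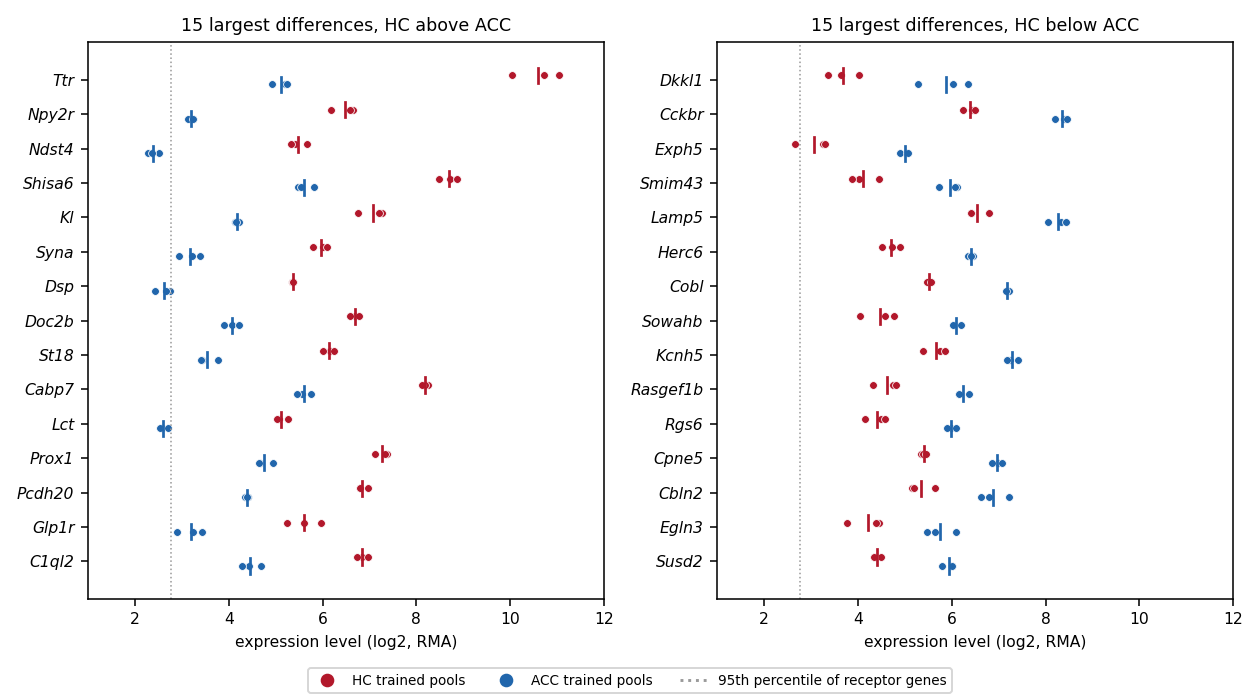
Log2 expression level (x axis) of the 15 genes with the largest difference in each direction, with a dot for each HC trained pool (red) and each ACC trained pool (blue) and a vertical tick for each mean. No gene has overlapping pools, and Ttr stands apart with HC trained pools between 10.03 and 11.05 and ACC trained pools between 4.93 and 5.25.

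The gene with the largest difference was Ttr, which encodes transthyretin, the carrier of thyroxine and of retinol-binding protein and the main product of the choroid plexus. Its level was 11.05, 10.03 and 10.73 in HC trained pools 1, 2 and 3, against 4.93, 5.19 and 5.25 in ACC trained pools. The difference of 5.48 (SE 0.22, adjusted p = 3.22e-08 from limma) corresponds to a 44.7-fold higher signal. HC trained pool 2 was the lowest HC pool, and still far above every ACC pool.

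Other genes of this group encode receptors or synaptic proteins. Npy2r, the Y2 receptor through which neuropeptide Y restrains transmitter release, had 6.66, 6.59 and 6.19 in HC trained pools, against 3.24, 3.14 and 3.24 in ACC trained pools, a 9.65-fold higher signal (difference 3.27, SE 0.15, adjusted p = 6.13e-08 from limma). Shisa6, an auxiliary protein of AMPA receptors, had 8.72, 8.86 and 8.48 in HC trained pools and 5.82, 5.47 and 5.55 in ACC trained pools. The HC pools lay close together and on average 3.07 log2 units above the ACC pools. Doc2b, a calcium sensor for vesicle fusion, had 6.70, 6.77 and 6.58 in HC trained pools and 4.07, 4.23 and 3.91 in ACC trained pools (difference 2.61). C1ql2, a secreted C1q-like protein of mossy fibre synapses, had 6.84, 6.96 and 6.73 in HC trained pools and 4.43, 4.28 and 4.68 in ACC trained pools. Glp1r, the receptor of glucagon-like peptide 1, was higher by 2.42 and had a wider spread than most, with 5.60, 5.97 and 5.24 in HC trained pools and 2.89, 3.44 and 3.23 in ACC trained pools.

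Among the remaining genes, Ndst4, a heparan sulfate sulfotransferase, had 5.68, 5.42 and 5.33 in HC trained pools, against 2.51, 2.28 and 2.36 in ACC trained pools, all under the 95th percentile of the receptor genes. Dsp, the desmosomal linker desmoplakin, and Lct, the intestinal disaccharidase lactase, are both known as transcripts of dentate granule neurons. Dsp had 5.36, 5.38 and 5.37 in HC trained pools and 2.75, 2.42 and 2.66 in ACC trained pools, and Lct was higher by 2.52 (SE 0.14). Both were under the 95th percentile of the receptor genes in every ACC trained pool, so the cortical side of these differences lies within the background of the array. The zinc finger factor St18 was higher by 2.60, the calcium-binding protein gene Cabp7 by 2.59, the protocadherin gene Pcdh20 by 2.47 and Syna, the envelope-derived syncytin A, by 2.78, each with an adjusted p of at most 1.34e-06 (limma).

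The 15 genes on the other side differed by less. Dkkl1, a secreted dickkopf-like protein, had 3.63, 3.36 and 4.02 in HC trained pools, against 6.03, 6.35 and 5.28 in ACC trained pools (difference −2.21, SE 0.25, adjusted p = 0.0001 from limma). ACC trained pool 3 was the lowest cortical pool and HC trained pool 3 the highest hippocampal one, and the groups did not overlap. Cckbr, the brain receptor of cholecystokinin, had 6.23, 6.42 and 6.49 in HC trained pools and 8.40, 8.45 and 8.20 in ACC trained pools. Lamp5, a membrane protein of upper layer and of neurogliaform neurons, had 6.41, 6.41 and 6.80 in HC trained pools and 8.32, 8.44 and 8.05 in ACC trained pools.

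Several of these genes act on excitability and intracellular signalling. Kcnh5, a voltage-gated potassium channel of the ether-a-go-go family, had 5.75, 5.38 and 5.85 in HC trained pools and 7.24, 7.41 and 7.18 in ACC trained pools (difference −1.62, SE 0.11). Rgs6, which shortens G protein signals, differed by −1.58, Rasgef1b, an exchange factor for Ras-family proteins, by −1.60, and Cpne5, a calcium-dependent membrane-binding copine, by −1.57. Cobl, which nucleates actin filaments in dendrites, was tight within both groups, with 5.50, 5.47 and 5.55 in HC trained pools and 7.17, 7.22 and 7.15 in ACC trained pools. Cbln2, a cerebellin that joins pre- and postsynaptic membranes, differed by −1.54 and Egln3, an oxygen-sensing prolyl hydroxylase, by −1.54. Exph5, Smim43, Herc6, Sowahb and Susd2 lay between −1.93 (Exph5) and −1.53 (Susd2).

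Gene lists for cell types and functions were then counted by how many measured members passed the test across all genes. Such counts describe the list beside the 4.78% of all genes that were higher and the 4.53% that were lower, and no test was run on a list. In bulk tissue, fewer cells of a type and less RNA per cell cannot be told apart. A gene may stand in more than 1 list.

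**Figure D2:**
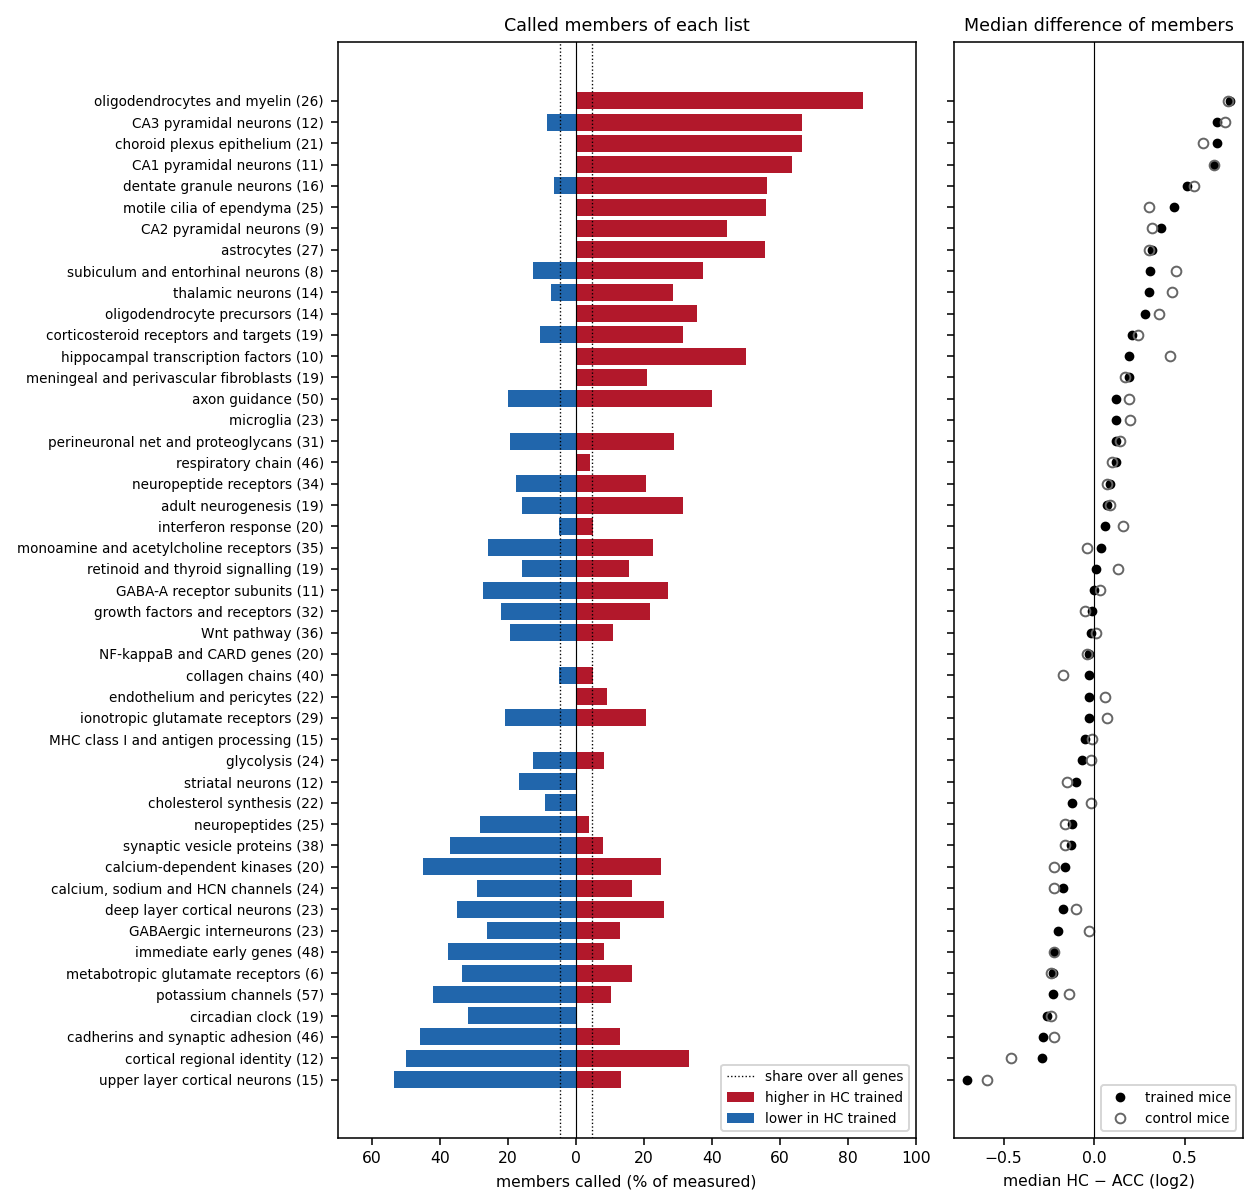
Members called higher (red, right) or lower (blue, left) in HC trained pools as a percentage of the measured members of each gene list (number in brackets), with dotted lines at the shares over all genes, and the median HC minus ACC difference in log2 units of the members in trained (filled) and control mice (open). Lists run by their median in trained mice, with myelin genes at the top at 0.75 and upper layer cortical genes at the bottom at −0.70.

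Genes of hippocampal subfields were called higher in HC trained pools more often than lower in each list. Of 16 genes of dentate granule neurons, 9 were higher and 1 was lower, with a median difference of 0.51 (over all genes it was −0.0045). Prox1, the transcription factor that fixes granule cell identity, had 7.37, 7.33 and 7.11 in HC trained pools, against 4.95, 4.66 and 4.65 in ACC trained pools (difference 2.51, SE 0.11, adjusted p = 3.78e-08 from limma). Il16, the precursor of a cytokine with a neuronal form, was higher by 1.88. Tdo2, a tryptophan-degrading enzyme, had 2.69, 2.78 and 2.65 in HC trained pools and 1.82, 1.73 and 1.67 in ACC trained pools, with the mean of either region within the background of the array. Without ACC control pool 1, 2 genes of the list were lower. The mean of the list was 6.08, 6.09 and 6.05 in HC trained pools and 5.18, 5.17 and 5.21 in ACC trained pools.

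For CA1 pyramidal neurons 7 of 11 genes were higher and 0 lower (median 0.66). Spink8, a serine protease inhibitor gene, had 5.01, 4.90 and 4.69 in HC trained pools and 2.73, 2.95 and 3.00 in ACC trained pools, and the chitin-binding receptor gene Fibcd1 had 6.08, 5.93 and 5.92 in HC trained pools and 3.89, 4.12 and 4.26 in ACC trained pools. HC and ACC pools of both genes were well apart. Htr1a, the inhibitory serotonin receptor, was higher by 1.24 (SE 0.12) and the transcription factor Pou3f1 by 0.66. Decorin (Dcn), a matrix proteoglycan that also marks fibroblasts, was higher by 1.97.

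CA3 genes were higher for 8 of 12 and lower for 1 (median 0.68). Besides St18, the copine gene Cpne7 had 7.62, 7.77 and 7.34 in HC trained pools and 5.42, 5.52 and 5.46 in ACC trained pools, and Homer3, a postsynaptic scaffold, was higher by 1.70. The lower member was Rph3a, which encodes the vesicle protein rabphilin, at 8.30, 8.30 and 8.33 in HC trained pools and 8.81, 8.86 and 8.89 in ACC trained pools. Genes of the small CA2 field were higher for 4 of 9 (median 0.37), among them Rgs14, which limits plasticity in CA2, at 6.24, 6.15 and 6.11 in HC trained pools and 5.15, 5.25 and 5.37 in ACC trained pools. Pcp4, a calmodulin regulator used as a CA2 marker and also present in cortical neurons, did not pass, with 9.16, 9.11 and 9.12 in HC trained pools and 9.69, 9.44 and 9.18 in ACC trained pools (adjusted p = 0.179 from limma).

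Transcription factors of the developing and adult hippocampus were higher for 5 of 10. Zbtb20, which sets hippocampal pyramidal fate, had 7.74, 7.98 and 7.60 in HC trained pools and 6.47, 6.22 and 6.39 in ACC trained pools (difference 1.41). Lhx9, a LIM homeodomain factor, was higher by 1.43 and Nfib by 0.41. Emx2, needed for the growth of the hippocampus in mice, was higher by only 0.34 (adjusted p = 0.0372 from limma), and without HC trained pool 2 its adjusted p was 0.134. Emx2 also failed the threshold when any other trained pool or HC control pool 3 was left out, and with batch as a block. Among genes of the subiculum and entorhinal cortex 3 of 8 were higher and 1 lower, with the neuropeptide gene Nts at 4.39, 4.01 and 3.78 in HC trained pools and 2.22, 2.27 and 2.38 in ACC trained pools, all under the 95th percentile of the receptor genes.

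Thalamic neuron genes were counted because the thalamus lies under the dissected hippocampus. Of 14, 4 were higher and 1 lower (median 0.30), and the mean of the list ran from 5.11 to 5.14 in HC trained pools, against 4.73 to 4.76 in ACC trained pools. Calb2, the calcium buffer calretinin, which also marks mossy cells and interneurons, was higher by 1.35, and Prkcd, a protein kinase C that is also in the CA3 list, by 1.24. Striatal neuron genes, from the tissue below the cingulate, were lower for 2 of 12 and higher for 0. The lower count was 1 without ACC trained pool 1 or 2 or HC trained pool 1 or 2, and 1 gene was higher without ACC trained pool 3. The 1 lower thalamic gene, Rora, was not called without ACC trained pool 2 or HC trained pool 1 or 2. The part of neighbouring tissue in the region difference was not tested.

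Genes of the choroid plexus were higher for 14 of 21 measured members and lower for 0 (median 0.68). Of all 21, 15 exceeded the background of the array in their mean over all 12 arrays. Kl, which encodes klotho, a co-receptor for fibroblast growth factor 23, had 7.26, 6.76 and 7.21 in HC trained pools, against 4.23, 4.14 and 4.15 in ACC trained pools. Clic6, an intracellular chloride channel protein, had 5.47, 4.32 and 5.64 in HC trained pools and 3.13, 2.97 and 2.82 in ACC trained pools, and the potassium channel gene Kcnj13 had 5.77, 4.86 and 5.86 in HC trained pools and 3.89, 3.47 and 3.56 in ACC trained pools. As for Ttr, HC trained pool 2 was the lowest of the HC pools for all 3 genes. The mean of the list was 4.60, 4.17 and 4.56 in HC trained pools, 3.37, 3.29 and 3.29 in ACC trained pools and between 4.50 and 4.57 in HC control pools. Without HC trained pool 2 the list had 15 higher members and a median of 0.88.

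Genes of motile cilia, carried by ependymal cells, were higher for 14 of 25 and lower for 0 (median 0.44). Dnah9, a dynein heavy chain, had 4.45, 4.58 and 4.38 in HC trained pools and 3.41, 3.26 and 3.30 in ACC trained pools, and Rfx3, a transcription factor of ciliogenesis, had 7.72, 7.71 and 7.65 in HC trained pools and 6.81, 6.81 and 6.78 in ACC trained pools. The mean of the list was 3.47, 3.36 and 3.39 in HC trained pools and 2.93, 2.95 and 2.99 in ACC trained pools, with HC trained pool 2 again the lowest of the HC pools, and 14 of the 25 members exceeded the background of the array in their mean over all 12 arrays. Genes of meningeal and perivascular fibroblasts were higher for 4 of 19 (1 was lower without ACC trained pool 2), and those of endothelium and pericytes for 2 of 22, a share of 9.09% near that of all genes. Neither Kdr, a receptor of vascular endothelial growth factor, nor the vitronectin gene Vtn passed with batch as a block or without ACC trained pool 2, ACC trained pool 3, HC trained pool 1, HC trained pool 2 or ACC control pool 3. Kdr was lost without the other trained pools too, and Vtn without ACC control pool 1 or any of the HC control pools.

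**Figure D3:**
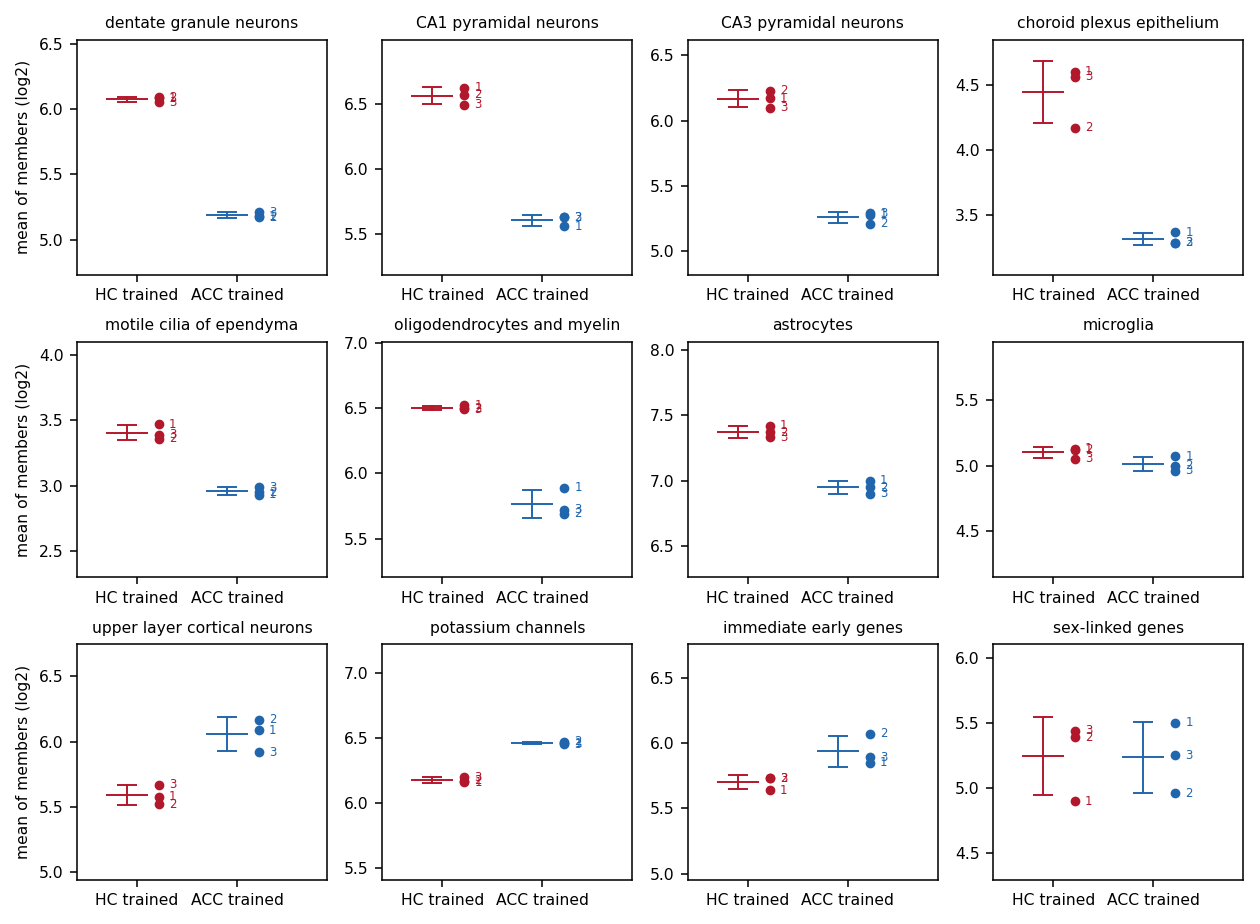
Mean log2 level of the measured members of 12 gene lists in each pool (dots, numbered by pool), with the group mean and SD (n = 3 pools a group) beside them, HC trained in red and ACC trained in blue. Every panel spans 1.8 log2 units. HC trained pool 2 drops to 4.17 for the choroid plexus genes, against 3.29 to 3.37 in ACC trained pools. The sex-linked genes, which join Xist with Y-linked genes, overlap between regions.

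Myelin genes were the list with the largest share of calls in 1 direction. Of 26 genes of oligodendrocytes and myelin, 22 were higher and 0 lower, with a median of 0.75 (HC trained pools 6.52, 6.50 and 6.49, ACC trained pools 5.89, 5.69 and 5.72). In control mice the list mean ran from 6.49 to 6.53 in HC pools and more widely, from 5.52 to 6.23, in ACC pools. Cldn11, the tight junction protein of the myelin sheath, had 8.33, 8.52 and 8.39 in HC trained pools and 7.57, 7.29 and 7.35 in ACC trained pools. Trf, which encodes the iron carrier transferrin, was higher by 1.05 (SE 0.15, limma adjusted p = 0.000469) and Fa2h, which hydroxylates myelin lipids, by 0.87. Leaving out each array in turn left 15 to 24 higher members, but batch 1 alone, with 2 pools a group, left 7. Oligodendrocyte precursor genes were higher for 5 of 14, with Sox10, the lineage's transcription factor, at 5.18, 4.95 and 4.84 in HC trained pools and 4.37, 4.60 and 4.40 in ACC trained pools.

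Astrocyte genes were higher for 15 of 27 and lower for 0 (median 0.32). Gfap, the intermediate filament of astrocytes, which is sparse in grey matter of the cortex, had 8.13, 8.07 and 7.90 in HC trained pools and 6.29, 6.02 and 6.23 in ACC trained pools (difference 1.85, SE 0.10, limma adjusted p = 3.95e-07). The gap junction gene Gja1 was higher by 0.53, Agt, which encodes angiotensinogen, by 1.48 and the bicarbonate transporter gene Slc4a4 by 0.50. The count was 9 without HC trained pool 2 or without ACC trained pool 3. Of 23 microglial genes 0 were called in either direction (limma), and 4 had an unadjusted p under 0.05. C1qc, a subunit of complement C1q, had 5.75, 5.82 and 5.54 in HC trained pools and 5.36, 5.40 and 5.43 in ACC trained pools without overlap (difference 0.31, adjusted p = 0.0932 from limma), and the receptor gene Csf1r differed by 0.16 (adjusted p = 0.301 from limma).

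Genes of the upper cortical layers ran the other way for the most part. Of 15 upper layer genes, 2 were higher and 8 lower (median −0.70). The homeodomain factor gene Cux2 had 5.09, 4.65 and 4.80 in HC trained pools and 5.90, 6.01 and 5.95 in ACC trained pools, and Rasgrf2, a Ras exchange factor, had 7.53, 7.48 and 7.53 in HC trained pools and 8.25, 8.23 and 8.15 in ACC trained pools. The higher members were Mdga1, an adhesion molecule that is also on hippocampal neurons, by 1.38 and Scnn1a, a sodium channel subunit that marks sensory layer 4, by 1.53. Deep layer genes were split, with 6 higher and 8 lower of 23. Foxp2 had 3.53, 3.66 and 3.75 in HC trained pools and 5.31, 5.04 and 5.16 in ACC trained pools and Tbr1 differed by −1.08, whereas Bcl11b (Ctip2), which is also made by hippocampal neurons, was higher by 0.71 and the thyroid hormone-binding crystallin gene Crym by 0.95. Without ACC trained pool 3, HC trained pool 1 or HC trained pool 3, 3 deep layer members were higher.

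Of 12 transcription factors and receptors that mark cortical areas, 6 were lower and 4 higher. Mef2c, which restrains synapse number, had 8.28, 8.26 and 8.53 in HC trained pools and 9.79, 9.87 and 9.75 in ACC trained pools (difference −1.45, SE 0.12, adjusted p = 7.82e-06 from limma). The LIM-only genes went opposite ways, Lmo4 at −0.87 and Lmo3 at 0.52. Of 23 interneuron genes 3 were higher and 6 lower. Vip, the peptide of disinhibitory interneurons, had 5.58, 5.57 and 5.62 in HC trained pools and 6.79, 6.97 and 6.73 in ACC trained pools. Prox1, described above for granule neurons, was among the higher members at 2.51, and Lamp5 among the lower at −1.73. Gad1, Gad2 and Slc32a1, shared by GABAergic neurons, differed by 0.04, −0.08 and 0.07 in batch 1. In batch 2 these 3 genes differed by 0.18, 0.18 and −0.17. Among genes of adult neurogenesis, which continues in the dentate gyrus, 6 of 19 were higher and 3 lower. Neurod1 had 6.09, 6.08 and 6.11 in HC trained pools and 5.51, 5.50 and 5.25 in ACC trained pools, while Dcx, the doublecortin of immature neurons, was lower, at 4.28, 4.32 and 4.59 in HC trained pools and 5.10, 4.91 and 4.96 in ACC trained pools.

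Neuropeptide genes were higher for 1 of 25 and lower for 7. Adcyap1, which encodes PACAP, had 3.78, 3.26 and 3.60 in HC trained pools and 4.63, 4.96 and 4.67 in ACC trained pools, and Npy, the ligand of Npy2r, was lower by 0.73 log2 units where its receptor was higher by 3.27. Crh, corticotropin-releasing hormone, and its receptor gene Crhr1 were both lower, at −0.56 and −0.77. Of 34 receptor genes 7 were higher and 6 lower. Sstr2, a somatostatin receptor, had 5.36, 5.48 and 5.52 in HC trained pools and 6.41, 6.35 and 6.17 in ACC trained pools, and Oprd1, the delta opioid receptor, differed by −0.69. Without ACC trained pool 1 or ACC trained pool 3 the higher count was 4.

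Potassium channel genes were called more often in the lower direction. Of 57, 24 were lower and 6 higher in HC trained pools (median −0.23), and the list mean was 6.16, 6.17 and 6.20 in HC trained pools and 6.46, 6.47 and 6.45 in ACC trained pools. Besides Kcnh5, 2 more channels of the ether-a-go-go superfamily were among the members with the smallest p. Kcnh7 had 7.40, 7.33 and 7.63 in HC trained pools and 8.59, 8.62 and 8.55 in ACC trained pools, and Kcnh1 had 6.13, 6.15 and 6.21 in HC trained pools and 6.86, 7.01 and 7.01 in ACC trained pools. Kcnv1, a silent subunit that modifies other channels, differed by −1.29, the sodium-activated channel gene Kcnt1 by −0.92 and Dpp10, an auxiliary subunit of A-type channels, by −1.30. Calcium, sodium and HCN channel genes were lower for 7 and higher for 4 of 24, with the T-type calcium channel gene Cacna1g at 5.29, 5.48 and 5.25 in HC trained pools and 6.28, 6.23 and 6.28 in ACC trained pools and the sodium channel subunit gene Scn3b higher by 0.74. Without HC trained pool 1 or HC trained pool 3, 2 of them were higher.

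Receptor subunits of one family differed in both directions. Among ionotropic glutamate receptor genes and their auxiliary proteins 6 were higher and 6 lower of 29. Gria1, the AMPA receptor subunit GluA1, had 10.06, 10.00 and 9.92 in HC trained pools and 8.92, 9.15 and 9.13 in ACC trained pools. The auxiliary proteins of AMPA receptors differed in both directions, Cacng8 by 0.84 and Cnih2 by 0.95 upwards and Cacng3 at −0.85. Of the metabotropic receptors Grm5 was higher by 0.37, and Grm3 and Grm8 differed by −0.89 and −1.21.

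Among GABA-A receptor subunits 3 were higher and 3 lower of 11. Gabra5, the subunit of extrasynaptic receptors on hippocampal pyramidal neurons, had 9.79, 9.71 and 9.69 in HC trained pools and 8.65, 8.66 and 8.70 in ACC trained pools (difference 1.06, SE 0.07, adjusted p = 2.54e-06 from limma). Gabra3 had 7.72, 7.59 and 7.76 in HC trained pools and 8.53, 8.76 and 8.61 in ACC trained pools. The calls of Gabrb1 and Gabra2 did not pass without ACC trained pool 1, ACC trained pool 3, HC trained pool 1 or HC trained pool 2, which left Gabra5 as the 1 higher subunit.

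Monoamine and acetylcholine receptor genes were higher for 8 and lower for 9 of 35. Htr4, a serotonin receptor coupled to cyclic AMP, had 5.24, 5.16 and 5.46 in HC trained pools and 3.95, 3.84 and 3.67 in ACC trained pools. Chrm5, a muscarinic receptor, had 3.72, 3.36 and 3.89 in HC trained pools and 1.96, 1.91 and 1.84 in ACC trained pools, all under the 95th percentile of the receptor genes. Drd5, a D1-type dopamine receptor, was higher by 0.95, and the histamine receptor gene Hrh3 differed by −0.76.

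Of 38 synaptic vesicle genes, 14 were lower and 3 higher. The paralogs Doc2a and Doc2b differed in opposite directions, Doc2a with 4.90, 4.74 and 4.63 in HC trained pools and 6.11, 6.05 and 6.05 in ACC trained pools and Doc2b by 2.61. Stx1a, a syntaxin of the fusion machinery, had 7.56, 7.51 and 7.53 in HC trained pools and 8.59, 8.77 and 8.68 in ACC trained pools. The lower count was 7 without HC trained pool 1 and 9 without HC trained pool 2, and the higher count was 5 without ACC control pool 1. Calcium-dependent kinases and their regulators were lower for 9 and higher for 5 of 20, with Camkk2, an activating kinase, at −0.99 and Camk2n1, an inhibitor of CaMKII, at 9.12, 8.97 and 9.23 in HC trained pools and 10.04, 10.13 and 10.13 in ACC trained pools.

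Immediate early genes, which neurons switch on within minutes of activity, were mostly lower where they differed: of 48, 18 were lower and 4 higher in HC trained pools (median −0.22). Many respond to calcium and cyclic AMP through the cyclic AMP response element (CRE), bound by CREB, and to growth factor signals through the CArG box, bound by serum response factor. The promoter windows of 5 of these genes are shown because close relatives differed in opposite directions, the orphan receptors of the Nr4a family and the AP-1 partners Fos and Jun. Sequences are RefSeq promoter windows (GRCm38.p6), from 250 bases before to 50 after the start, written 5′ to 3′ on the gene's strand, with the CRE core (TGACG, or CGTCA for the other strand) in capitals.
Nr4a1 (chr15:101266596-101266895, + strand): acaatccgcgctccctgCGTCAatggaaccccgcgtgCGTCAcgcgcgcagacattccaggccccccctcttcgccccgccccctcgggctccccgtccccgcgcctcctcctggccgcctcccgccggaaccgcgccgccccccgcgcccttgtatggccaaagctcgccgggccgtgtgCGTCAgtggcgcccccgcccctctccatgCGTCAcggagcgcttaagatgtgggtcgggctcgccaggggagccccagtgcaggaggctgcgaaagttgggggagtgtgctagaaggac
Nr4a2 (chr2:57123954-57124253, - strand): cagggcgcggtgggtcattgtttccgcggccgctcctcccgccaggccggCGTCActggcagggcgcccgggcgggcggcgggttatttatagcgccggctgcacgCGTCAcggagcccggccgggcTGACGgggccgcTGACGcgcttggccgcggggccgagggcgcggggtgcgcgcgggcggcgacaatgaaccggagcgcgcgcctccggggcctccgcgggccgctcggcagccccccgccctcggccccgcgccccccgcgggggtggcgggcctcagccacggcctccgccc
Nr4a3 (chr4:48045055-48045354, + strand): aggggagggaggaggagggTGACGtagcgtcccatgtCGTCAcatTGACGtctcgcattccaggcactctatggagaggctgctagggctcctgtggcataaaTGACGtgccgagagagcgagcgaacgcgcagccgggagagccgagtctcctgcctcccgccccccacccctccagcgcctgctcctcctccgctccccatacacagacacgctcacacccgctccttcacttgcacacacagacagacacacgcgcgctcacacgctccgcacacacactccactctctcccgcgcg
Fos (chr12:85473640-85473939, + strand): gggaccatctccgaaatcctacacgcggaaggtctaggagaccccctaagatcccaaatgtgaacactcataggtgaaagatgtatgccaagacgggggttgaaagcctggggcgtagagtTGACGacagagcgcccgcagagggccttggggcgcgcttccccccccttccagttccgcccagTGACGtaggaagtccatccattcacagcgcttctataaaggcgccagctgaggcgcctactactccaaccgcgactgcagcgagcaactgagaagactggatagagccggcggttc
Jun (chr4:95052173-95052472, - strand): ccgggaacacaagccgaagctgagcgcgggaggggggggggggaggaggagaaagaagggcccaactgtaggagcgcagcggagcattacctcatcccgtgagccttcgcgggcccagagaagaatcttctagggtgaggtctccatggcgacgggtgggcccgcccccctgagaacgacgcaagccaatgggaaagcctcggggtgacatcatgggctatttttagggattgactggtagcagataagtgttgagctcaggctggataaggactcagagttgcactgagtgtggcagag

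The 3 Nr4a windows held 4 cores each, Fos held 2 and Jun 0. Of the listed genes 38 had a window. A core stood in 18 of the 21 windows of lower genes, in 3 of the 4 windows of higher genes and in 15 of the 36 windows of genes that were not called, against 20.8% of all 32851 promoter windows. Some genes have several windows, which can overlap. By gene, a core stood in a window of 12 of 12 lower, 3 of 4 higher and 14 of 22 uncalled genes. The other lower genes, Egr1 and Arc among them, had no window. The full CRE (TGACGTCA, which contains a core on each strand) was in 2 windows of lower, 0 of higher and 5 of uncalled genes, against 1.79% of all windows. The CArG box was in 4 windows of lower genes, in 1 of a higher gene, Dusp5, and in 0 of uncalled genes, against 1.63% of all windows. The 4 windows were all of 1 gene, Egr2, and partly overlap. These are matches of letters only.

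**Figure D4:**
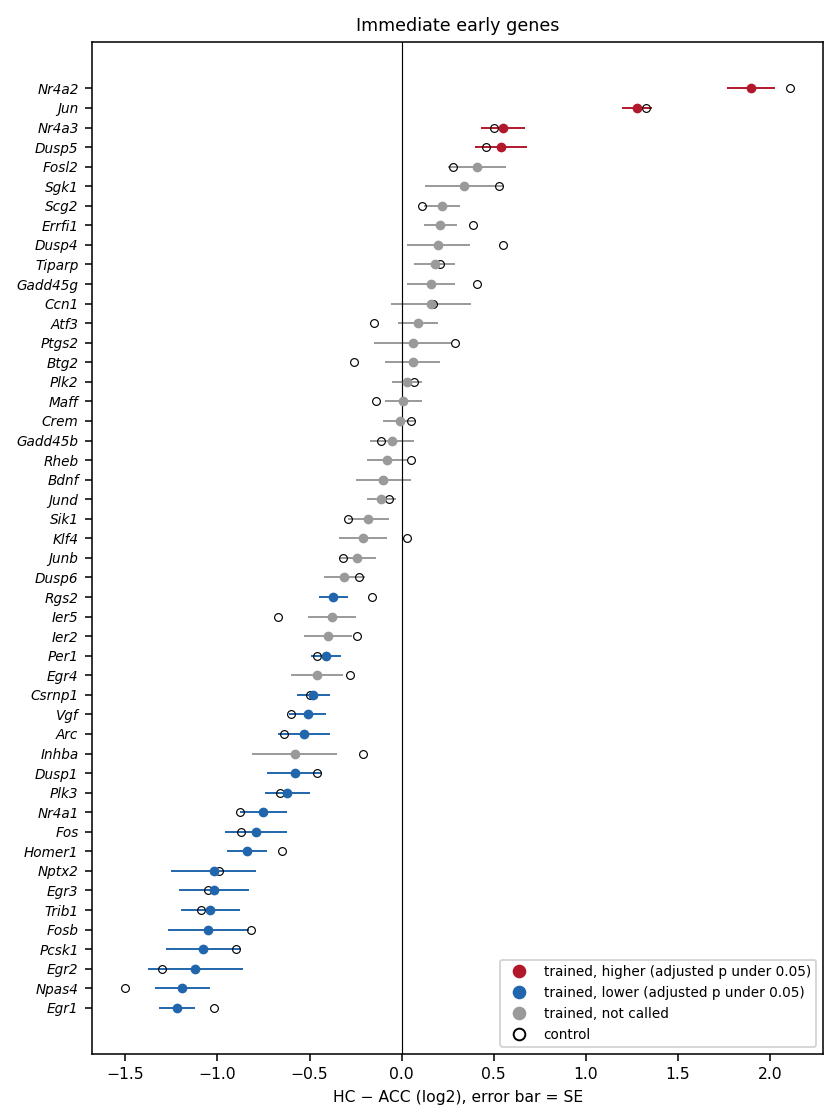
HC minus ACC difference in log2 units of all 48 immediate early genes in trained mice (filled, with SE; red higher, blue lower, grey not called at an adjusted p of 0.05) and in control mice (open). Nr4a2 stands highest at 1.90 and Egr1 lowest at −1.22, and the open circles of both lie on the same side of 0.

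Within the Nr4a family, Nr4a2 had 8.01, 8.13 and 7.92 in HC trained pools, against 5.89, 6.43 and 6.05 in ACC trained pools, a 3.73-fold higher signal (difference 1.90, SE 0.13, adjusted p = 2.67e-06 from limma). Nr4a3 had 7.21, 7.31 and 7.02 in HC trained pools and 6.51, 6.81 and 6.58 in ACC trained pools and was higher by 0.55. Nr4a1 ran opposite, with 7.48, 7.79 and 7.74 in HC trained pools and 8.32, 8.63 and 8.31 in ACC trained pools (difference −0.75, adjusted p = 0.00193 from limma). Jun had 7.38, 7.36 and 7.34 in HC trained pools and 6.18, 6.08 and 5.96 in ACC trained pools, with the smallest SE of the 4 higher genes. Its partners Fos and Fosb were lower, Fos with 4.30, 4.82 and 4.62 in HC trained pools and 5.28, 5.50 and 5.34 in ACC trained pools and Fosb with 4.42, 4.32 and 4.57 in HC trained pools and 5.32, 5.69 and 5.44 in ACC trained pools. Junb and Jund did not pass, at −0.24 and −0.11.

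The zinc finger factors of the Egr family were lower. Egr1 had 6.74, 6.79 and 6.73 in HC trained pools and 7.89, 8.10 and 7.92 in ACC trained pools (difference −1.22, SE 0.10, adjusted p = 9.6e-06 from limma), Egr3 differed by −1.02 and Egr2 by −1.12, and Egr4 did not pass (−0.46, adjusted p = 0.0613 from limma). Npas4, a factor induced by calcium entry in neurons only, had 4.62, 4.67 and 4.48 in HC trained pools and 5.75, 5.95 and 5.64 in ACC trained pools. Homer1, a postsynaptic scaffold with a short activity-induced form, had 6.53, 6.59 and 6.57 in HC trained pools and 7.22, 7.68 and 7.31 in ACC trained pools. Arc, which drives the uptake of AMPA receptors, differed by −0.53 and the secreted Nptx2, which gathers AMPA receptors, by −1.02. Pcsk1, a prohormone convertase, and Vgf, a peptide precursor it cuts, differed by −1.08 and −0.51. Trib1, Csrnp1, Plk3, Per1, Dusp1 and Rgs2 were also lower, between −1.04 (Trib1) and −0.37 (Rgs2), and the phosphatase gene Dusp5 was higher by 0.54.

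ACC trained pool 2 was the highest cortical pool for Fos, Fosb, Egr1, Egr2, Egr3, Npas4, Nr4a1, Arc, Homer1, Nptx2 and Pcsk1. The list mean was 5.64, 5.73 and 5.73 in HC trained pools and 5.85, 6.07 and 5.89 in ACC trained pools, without overlap. Calls of Arc and Nptx2 did not pass without ACC trained pool 2 (adjusted p = 0.119 and 0.0619 from limma) or without HC trained pool 1, and that of Arc also without HC trained pool 3. Nr4a3 did not pass without ACC trained pool 1 or HC trained pool 2, Dusp5 without ACC trained pool 1 or 3 or HC trained pool 2 or 3, Egr2 without ACC trained pool 1 or 2 or HC trained pool 1, Rgs2 without ACC trained pool 3 or HC trained pool 2 or 3, and Dusp1 without any 1 of the trained pools. The higher count was 2 without ACC trained pool 1 or HC trained pool 2. Batch 1 alone gave 8 lower and 2 higher genes. The others of the list did not pass, among them Bdnf (3.78, 3.56 and 3.84 in HC trained pools and 3.56, 4.03 and 3.89 in ACC trained pools) and Plk2 (8.52, 8.56 and 8.58 in HC trained pools and 8.45, 8.64 and 8.48 in ACC trained pools).

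Axon guidance genes were called in a large share, 20 higher and 10 lower of 50 (median 0.12). Slit1, a repellent ligand, had 7.50, 7.62 and 7.37 in HC trained pools and 6.17, 6.12 and 6.31 in ACC trained pools. The semaphorin co-receptors Nrp1 and Nrp2 were higher together, Nrp1 with 7.14, 6.97 and 6.96 in HC trained pools and 5.59, 6.02 and 5.78 in ACC trained pools and Nrp2 by 1.14. Ephrin receptors split, with Epha6 at 8.10, 8.13 and 7.96 in HC trained pools and 6.72, 6.92 and 6.97 in ACC trained pools and Ephb6 at 6.17, 6.06 and 6.17 in HC trained pools and 7.21, 7.44 and 7.36 in ACC trained pools. Cadherin and synaptic adhesion genes were called more often in the lower direction, with 21 lower and 6 higher of 46 (median −0.28). Pcdh10 had 7.87, 7.82 and 7.96 in HC trained pools and 8.72, 8.70 and 8.65 in ACC trained pools and Cntn4, a contactin, differed by −1.02, while Lrrtm1, an excitatory synapse organiser, was higher by 0.84 and Pcdh20 by 2.47.

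Proteoglycan genes, including those of perineuronal nets, were higher for 9 and lower for 6 of 31. The heparan sulfate enzymes differed in both directions. Ndst3 had 6.77, 6.91 and 6.85 in HC trained pools and 7.48, 7.60 and 7.50 in ACC trained pools while its paralog Ndst4 was higher by 3.09, and the sulfotransferase gene Hs3st2 had 3.97, 3.92 and 4.21 in HC trained pools and 5.45, 5.52 and 5.52 in ACC trained pools. The glypican genes Gpc4 and Gpc6, which carry heparan sulfate on the cell surface, differed by 1.04 and −0.61. Collagen chains were called for 2 higher and 2 lower of 40 (10.0%, close to the 9.30% of all genes), with Col25a1, a neuronal transmembrane collagen, at 5.17, 5.24 and 5.37 in HC trained pools and 4.87, 4.64 and 4.81 in ACC trained pools. Neither of the lower chains, Col12a1 and Col6a2, passed without HC trained pool 1, HC trained pool 2 or ACC trained pool 1, and Col6a2 did not pass without ACC trained pool 3 or HC trained pool 3 either. The higher count was 4 without HC trained pool 2 and 1 without HC trained pool 1. Wnt pathway genes were higher for 4 and lower for 7 of 36, with Wnt4 at −0.68 and the feedback inhibitor gene Nkd2 at 0.88, and 2 were higher without ACC trained pool 2, HC trained pool 1 or HC trained pool 2.

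Corticosteroid receptors and their targets were higher for 6 and lower for 2 of 19. Nr3c2, the mineralocorticoid receptor, had 7.33, 7.28 and 7.14 in HC trained pools and 5.80, 5.75 and 5.88 in ACC trained pools (difference 1.44, SE 0.10, adjusted p = 2.94e-06 from limma). Hsd11b1, which regenerates active glucocorticoid, was higher by 0.84 and Fkbp5, a glucocorticoid-induced co-chaperone, by 0.76. The lower count was 1 without ACC trained pool 2 or HC trained pool 1, where Cdkn1a lost its call. Growth factor and receptor genes were higher for 7 and lower for 7 of 32. The co-receptors for GDNF-family ligands went opposite ways, Gfra1 with 6.86, 6.83 and 6.88 in HC trained pools and 5.63, 5.85 and 5.90 in ACC trained pools and Gfra2 with 7.80, 8.02 and 8.11 in HC trained pools and 9.23, 9.33 and 9.30 in ACC trained pools. Retinoid and thyroid genes were higher for 3 and lower for 3 of 19, with Aldh1a1, which makes retinoic acid, higher by 1.13 and the thyroid hormone receptor gene Thrb at −0.76. Without ACC control pool 1 there were 5 higher genes in this list.

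Of 19 clock genes, 6 were lower and 0 higher (median −0.26). Npas2, the forebrain partner of Bmal1, had 7.46, 7.45 and 7.45 in HC trained pools and 8.07, 8.07 and 7.98 in ACC trained pools. The repressor gene Bhlhe40 differed by −0.59 and the output factor gene Hlf by −0.56. Cry2, at −0.26, did not pass when any array other than ACC control pool 2 was left out, nor did Rora without ACC trained pool 2, HC trained pool 1 or HC trained pool 2. Among genes of metabolism the called share differed between lists, beside 9.30% of all genes. Respiratory chain genes were called for 2 of 46 (4.35%) and glycolytic genes for 2 higher and 3 lower of 24 (20.8%). Genes of cholesterol synthesis were called for 2 lower of 22 (9.09%, near the share of all genes). The higher calls were lost without single pools (0 of the respiratory chain without HC trained pool 1 or 3, and 0 of glycolysis without any 1 of HC trained pools 1, 2 and 3, ACC trained pools 1 and 2, HC control pool 2 and ACC control pools 2 and 3). Without HC trained pool 2 the respiratory chain had 4 and cholesterol synthesis 1 higher gene, and the lower count of cholesterol synthesis was 1 without ACC trained pool 2 or HC trained pool 1.

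The called share of the immune lists ran from 0.00% to 10.0%, against 9.30% of all genes. At that share, lists of this size would hold few calls. Of 20 genes of the NF-kappaB pathway and CARD family 0 passed (limma; 3 at an unadjusted p under 0.05), and of 15 genes of MHC class I 0 passed (3 at an unadjusted p under 0.05). Of 20 interferon response genes Herc6 was lower, with 4.52, 4.72 and 4.90 in HC trained pools and 6.35, 6.46 and 6.40 in ACC trained pools, and Ifi27 higher, with 5.37, 5.29 and 5.58 in HC trained pools and 4.17, 4.26 and 4.27 in ACC trained pools. Leaving out 1 array gave 1 lower gene of MHC class I without ACC control pool 1 or 2, 1 lower gene of the NF-kappaB and CARD list without HC control pool 1, and 2 higher interferon response genes without HC trained pool 2. Of the genes that the study followed in brain and blood, the 6 given here were not called (limma), and 0 had an unadjusted p under 0.05. Card6, a CARD protein tied to NF-kappaB signalling, had 2.99, 2.87 and 2.32 in HC trained pools and 2.67, 2.52 and 2.70 in ACC trained pools (difference 0.10, adjusted p = 0.786 from limma), around the background level of the array. Dnase1l2, a deoxyribonuclease, had 3.50, 4.03 and 3.26 in HC trained pools and 3.39, 3.18 and 3.72 in ACC trained pools. Differences of Nfkb2, Ikbkb and Irf8 were −0.16, 0.03 and 0.02, and Ywhaz, the reference gene of the study's RT-PCR, had 6.20, 6.34 and 6.31 in HC trained pools and 6.39, 6.31 and 6.32 in ACC trained pools. The SE of these 6 differences lay between 0.08 and 0.17. The smallest difference called for any gene was 0.224, and a gene with a larger SE needs a larger difference to pass.

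Whether the region difference depended on training was tested by subtracting the HC minus ACC difference of control mice from that of trained mice. No gene passed (0.00% of 27381; limma interaction, smallest adjusted p = 0.107), while 2427 had an unadjusted p under 0.05, where 5% of the genes tested is 1369.1. Without ACC trained pool 2, 1 gene passed, Mir1900 (2.21, limma adjusted p = 0.0423). In control mice 1897 genes were higher and 1752 lower in HC (13.3%). The same direction was called in both for 998 higher and 824 lower genes, which is 71.5% of the calls in trained and 49.9% of the calls in control mice, and opposite directions for 3. Both contrasts use the same estimate of each gene's spread, so the 2 sets of calls are not independent. Of the 2547 genes called in trained mice 2468 had the same sign in controls, and over all genes, which are not independent replicates, the trained and control differences correlated at r = 0.705.

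**Figure D5:**
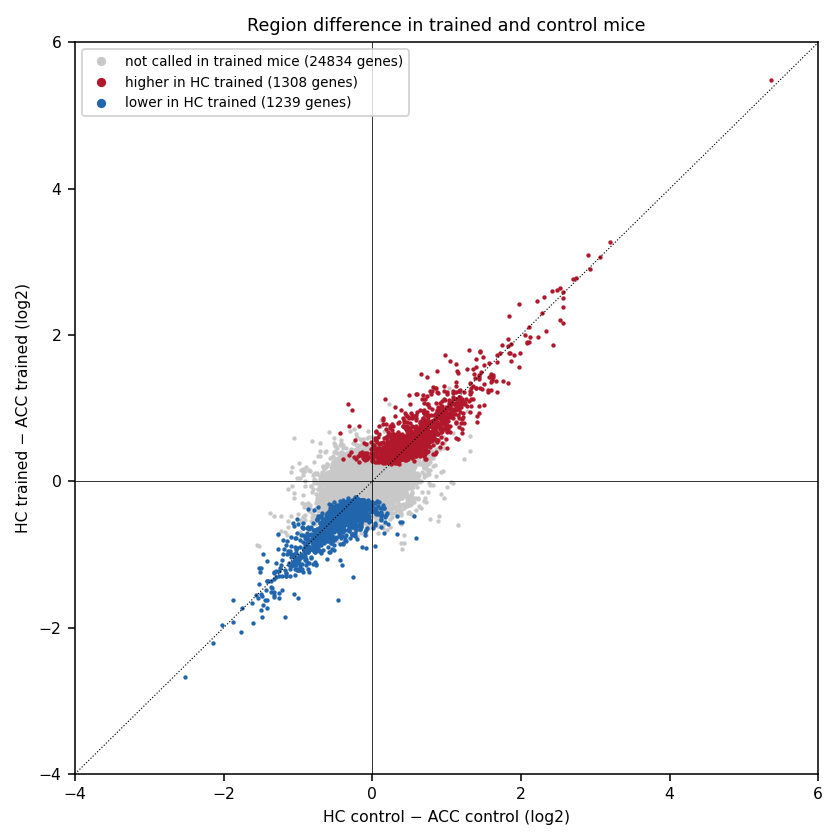
HC minus ACC difference in log2 units of every gene in trained mice (y axis) against control mice (x axis), red for genes higher and blue for genes lower in HC trained pools and grey for the rest, with a dotted line of equality. Called genes lie along the line, and no gene passed the test of the difference between the 2 contrasts.

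Genes described above serve as examples of both contrasts. Ttr differed by 5.48 in trained and 5.36 in control mice, and Prox1 by 2.51 in trained and 2.56 in control mice. Cckbr differed by −1.97 in trained and −2.02 in control mice, Gfap by 1.85 in trained and 1.83 in control mice, and Egr1 by −1.22 in trained and −1.02 in control mice. For myelin genes the list median was 0.75 in trained and 0.74 in control mice, and for immediate early genes −0.22 in trained and −0.22 in control mice. Not every list was so alike. Collagen chains had a median of −0.03 in trained and −0.17 in control mice. In trained mice 2 of the 40 chains were higher and 2 lower in HC, and in control mice 1 was higher and 8 lower. Whether a list differed between the contrasts was not tested. The sex-linked genes, with a list median of −0.02 in trained mice, had one of 0.86 in control mice, with list means of 5.01 to 5.56 in HC control pools and 4.61 to 4.81 in ACC control pools, and the part of a different sex ratio in the control contrast was not tested.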

How the data were processed

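RNA of 12 pools, 3 in each of 4 groups, was hybridised to Mouse Gene 2.0 ST arrays, 1 array a pool. The authors deposited log2 expression values of 27381 genes, made by Robust Multiarray Average (affy 1.62.0, R 3.6.0) with Brainarray probe sets, 1 per Entrez gene. Which arrays were normalized together, and whether batch was adjusted for, is not given in the sources used here. Symbols were taken from the Entrez IDs, and 587 genes had none. Group means of the 12 arrays were fitted with limma 3.58.1 in R 4.3.3 without covariates, p-values were two-sided and adjusted over all genes (Benjamini-Hochberg), and the threshold was 0.05. The number of arrays, 3 a group, limits the precision (median SE of a difference 0.105). The script was tested on simulated data.

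The 15 largest called differences in each direction with an established symbol and a level over the background of the array were named, then in each of 50 gene lists up to 6 members with the smallest p, every immediate early and study gene, and, at any level, the 5 smallest interaction p among genes with an established symbol. Of 1114 listed symbols 1055 were matched, 8 of them by another symbol. Members and lists were chosen with earlier results of these data known. A further gene of the study is not reported here. Alternatives covered batch, pairing, the arrays fitted, a filter on dim genes, normalization, the variance model and each array left out. Same-numbered HC and ACC trained pools deviated from their group means with r = −0.103, −0.104 and −0.183, so the numbers were not taken as pairs.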

Additional observations from a re-analysis of the deposited data

Results flagged for a closer look

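Of the 5 genes named for the smallest interaction p, 4 had HC and ACC pools apart in opposite directions in trained and control mice. A choice by that p favours such a pattern, and its share over all genes was not counted. None of the 4 passed the test of the difference itself over all genes. H2ac6, a histone H2A gene, differed by −0.54 in trained and 0.88 in control mice, an interaction of −1.42 (SE 0.23, limma adjusted p = 0.17), at a mean level of 1.80, under the 95th percentile of the receptor genes. Lce3d, of the late cornified envelope family, differed by 0.55 in trained and −0.81 in control mice (interaction 1.36, limma adjusted p = 0.17). Anxa13, an annexin, differed by 0.27 in trained and −0.46 in control mice (interaction 0.73, limma adjusted p = 0.221), at a mean level of 1.99, also within the background. Apol9a, an apolipoprotein L gene, differed by 0.27 in trained and −0.78 in control mice (interaction 1.05, limma adjusted p = 0.221).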

How the results depend on the processing

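Of 21 alternatives, 20 kept the counts of higher and lower genes within 1.5 times. Batch 1 alone, with 2 pools a group, gave 585 higher and 550 lower genes, with 8 choroid plexus, 8 cilia and 7 astrocyte genes higher. With batch as a block there were 1117 higher and 1054 lower genes, and 2155 calls were shared with the fit without it (99.3% of the 2171 with the block, 84.6% of the 2547 without). With the replicate block there were 1087 higher and 1046 lower genes. Leaving out each array in turn gave 960 to 1338 higher and 898 to 1222 lower genes, 178 to 190 higher and 117 to 132 lower by at least 1. The interaction count was 0 to 1 over the arrays left out. The 1 call, Mir1900 (2.21, limma adjusted p = 0.0423), came without ACC trained pool 2. Of 233 named genes that were called, 179 kept their call under every alternative that tested them and 0 reversed, and 53 lost it in batch 1 alone. Most named genes were picked for a large difference or a small p, so this count does not stand for all 2547 calls. Without HC trained pool 2, 215 of the 233 kept their call. Over all genes, 1822 calls (71.5%) were kept in the same direction without that pool. The filter on dim genes tested 226 of the 233.

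Uncalled genes changed sign, and the cause was not tested. In batch 1 alone Nfkb2 was at 0.02 and Irf8 at −0.14. Over the arrays left out Irf8 ran from −0.10 to 0.13, Krt7 from −0.05 to 0.09, Ikbkb from −0.04 to 0.09, Card6 from −0.04 to 0.30 and Dnase1l2 from −0.05 to 0.33. Of these genes, Card6 lay around the background level of the array and Dnase1l2 above it. Pools average animals, so the spread between single mice was not measured.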
